A study of Mus musculus with 34 samples.

Results

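The comparison set mouse CAD cells labelled mir-138 DKO against wild-type (WT) CAD cells, both growing in 10% serum, over all genes of the polyA RNA-seq. Its members were chosen by sample title alone, as the 2 libraries titled CAD DKO serum and the 2 titled CAD WT serum of the first of 3 RNA-seq experiments, 4 of the 34 libraries of the series. CAD is an established neuroblastoma line of catecholaminergic character, and both groups are cells of that line, kept in the same medium and collected before any serum withdrawal. DKO stands for a double knockout of mir-138, a miRNA with a pair of hairpin genes in the mouse genome. Nothing in the labels says how the loci were edited, how large the lesions are or whether the line is a single clone, so differences between clones of a line and differences due to the loss of the miRNA cannot be told apart. Whether replicates are separate cultures is not labelled, and p-values here rest on the spread of these libraries, which may be technical.

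A miRNA guides a silencing complex to messenger RNAs that pair with its seed, bases 2 to 8 counted from the 5′ end, and the direct effect is a lower level or lower translation of those messengers. miR-138 is abundant in the nervous system and is known there from work on dendritic spines and axon growth. CAD cells in serum divide, but already express many genes of sympathetic neurons and chromaffin cells, such as those for secretory granules and neurofilaments. Removal of serum makes them stop dividing and extend processes.

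The RNAs that define the genotype are shown here with the seed in capitals for the mature forms, read from RefSeq. Both hairpins give the same 5p arm and differ in the 3p arm.
mmu-miR-138-5p: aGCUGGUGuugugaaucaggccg
mmu-miR-138-1-3p: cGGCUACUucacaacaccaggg
mmu-miR-138-2-3p: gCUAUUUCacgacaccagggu
The hairpins follow, with the 5p arm in capitals. Mir138-1 lies at chr9:122682876-122682974 on the plus strand and Mir138-2 at chr8:94324311-94324381 on the plus strand (GRCm38.p6), each annotated as a miRNA gene.
Mir138-1: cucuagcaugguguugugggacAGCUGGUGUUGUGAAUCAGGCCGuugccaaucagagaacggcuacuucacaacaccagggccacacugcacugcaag
Mir138-2: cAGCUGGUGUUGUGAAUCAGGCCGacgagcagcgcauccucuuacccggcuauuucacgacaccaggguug
In small RNA libraries of WT cells in serum the shared arm mmu-miR-138-5p had 8960, 5240 and 8180 counts per 1e6 assigned reads (CPM), ranking 32, 48 and 35 by level. The arm of the first hairpin, mmu-miR-138-1-3p, had 561, 357 and 542 CPM, and that of the second, mmu-miR-138-2-3p, had 23.7, 9.13 and 26.0 CPM in the same libraries. Small RNA of cells labelled DKO was not analysed here, so the absence of mature miR-138 rests on the label.

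In the polyA RNA, reads at Mir138-1 were higher in the libraries labelled DKO, and those at Mir138-2 were 0 throughout. Mir138-1 had 242 and 217 reads in the libraries labelled DKO, against 18 and 18 reads in WT libraries. That is 5.93 and 7.73 CPM in cells labelled DKO, against 0.686 and 0.558 CPM in WT cells, a log2 fold change of 3.45 ± 0.34 (standard error, SE, edgeR's quasi-likelihood test, Benjamini-Hochberg adjusted p = 1.52e-06). Reads assigned to a hairpin gene come from a longer transcript and do not measure the mature miRNA, and with the lesion unknown they do not check the knockout. The 2 genes on either side of Mir138-1, taken among RefSeq genes with reads, did not pass the threshold, a false discovery rate of 0.05. Abhd5 stood at -0.15 (adjusted p = 0.298), Ano10 at -0.02 (adjusted p = 0.871), Tcaim at -0.10 (adjusted p = 0.726) and Zfp445 at -0.17 (adjusted p = 0.267), all log2 fold changes of DKO-labelled over WT cells. Counted genes without a symbol were not taken as neighbours. Among genes that rose at least 2-fold, in the order of the counts, such a gene stood just before Mir138-1 and rose by 3.61. Its distance from Mir138-1 was not examined. Mir138-2 and Mir137 had 0 reads in all 4 libraries. Around Mir138-2, Mt1, a metallothionein that binds zinc and copper, rose (1.24 ± 0.15, adjusted p = 1.65e-05), Herpud1 of protein quality control in the endoplasmic reticulum fell (-0.55 ± 0.08, adjusted p = 6.09e-05), the nuclear pore gene Nup93 rose slightly (0.17 ± 0.06, adjusted p = 0.0258), and Nlrc5 was below the filter on low counts.

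Reads assigned to genes numbered 41505181 and 28718088 in the libraries labelled DKO, against 26543424 and 32628932 in WT libraries. Replicates correlated at 0.98259 (cells labelled DKO) and 0.98751 (WT cells) across genes on the log scale. Over the 8 libraries of the first experiment the first principal component held 63.4% of the variance and separated the labels, at 55.6 to 72.1 for libraries labelled DKO and -74.2 to -53.4 for WT libraries. Mitochondrially encoded transcripts made up 0.835 and 1.19% of assigned reads in cells labelled DKO, against 1.35 and 1.23% in WT cells.

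The transcriptomes differed at 40.7% of genes. Of 13630 genes tested, 19.2% were higher and 21.5% lower in cells labelled DKO, and 66.4% had levels that did not overlap between the groups, so a call in this comparison says little without its size. The counts of list and marker members below are to be read beside these shares. For every gene named below as higher, lower, risen or fallen in cells labelled DKO, the levels of the 2 groups do not overlap. Most calls were small, with 2097 higher and 1796 lower genes changing by less than 2-fold. Changes of at least 2-fold were more often falls, at 1132 genes (8.31%) against 521 rises (3.82%). Many of the falls were close to losses: 256 genes called lower had 0 to 3 reads in the libraries labelled DKO together, 168 of them none, while 50 genes called higher had 0 to 3 reads in the WT libraries together, 24 of them none. The median log2 fold change of all genes tested was -0.01.

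**Figure D1:**
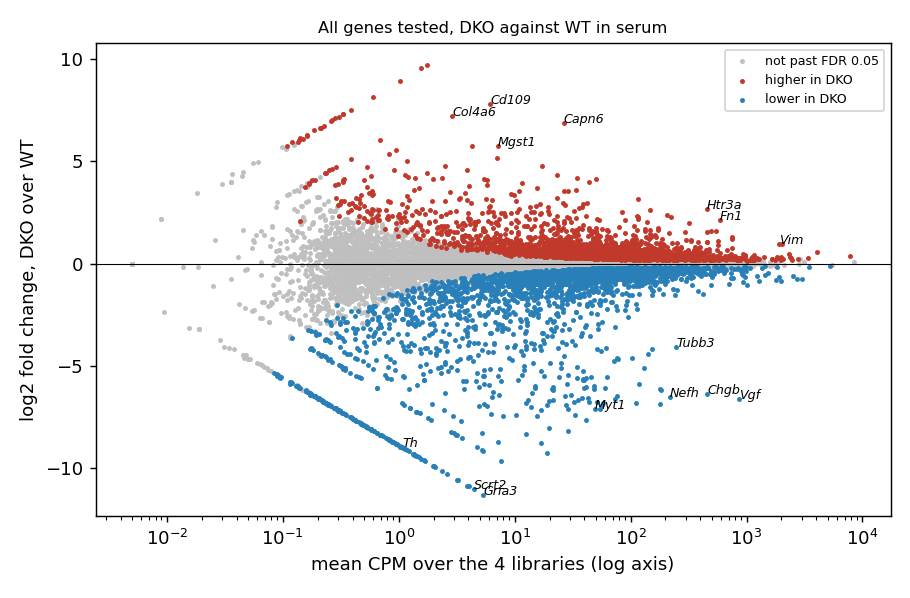
Mean level (CPM over the 4 libraries, log axis) and log2 fold change of DKO-labelled over WT cells in serum for each gene tested, with genes higher in DKO-labelled cells in red, lower in blue and the rest in grey. The wing of falls reaches further and is denser than that of rises, and the diagonal edges are genes with no reads in 1 group, whose fitted change is not a measured fold.

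Transcription factors of the sympathetic lineage changed in both directions, by less than 2-fold in all but 3 of the 10 called. Phox2a, a homeobox factor of noradrenergic neurons, had 309.9 and 349 CPM in cells labelled DKO, against 321 and 302 CPM in WT cells, and did not pass (0.08, adjusted p = 0.394). Gata2 was lower by a small margin (207 and 216 CPM in cells labelled DKO against 270.0 and 279.9 CPM in WT cells, -0.38), while Tfap2b was higher (0.39). Larger changes were those of Six3, at 4.46 and 4.77 CPM in cells labelled DKO against 32.4 and 33.8 CPM in WT cells (-2.84 ± 0.16), and of Eya1, at 37.8 and 29.3 CPM in cells labelled DKO against 11.1 and 13.2 CPM in WT cells (1.47 ± 0.14). Of 19 factors listed as markers of the adrenergic state of neuroblastoma, 14 could be tested. Of these 4 were higher and 6 lower (median -0.16), beside 19.2% higher and 21.5% lower among all genes. The count of 6 was 3 without WT replicate 1, when the calls of Isl1 (-0.29, adjusted p = 0.155) and Gata3 (-1.57, adjusted p = 0.0635) were among those lost. Isl1 and Gata3 also lost their calls without DKO replicate 1 (-0.16, adjusted p = 0.156, and -1.07, adjusted p = 0.105) and without WT replicate 2 (-0.37, adjusted p = 0.0681, and -1.23, adjusted p = 0.156).

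Several factors of differentiating neurons were nearly lost. Myt1, a zinc finger factor of early neurons, had 0.662 and 0.748 CPM in cells labelled DKO, against 105 and 91.3 CPM in WT cells (-7.13 ± 0.14, adjusted p = 5.38e-14). Its relatives Myt1l (-4.18 ± 0.18) and St18 (-5.49 ± 0.37) fell as well. Scrt1, a neuronal repressor of the Snail superfamily, had 0.196 and 0.463 CPM in cells labelled DKO, against 35.7 and 39.8 CPM in WT cells, and Scrt2 had 0 reads in both libraries labelled DKO, against 8.43 and 9.33 CPM in WT cells, which makes it at least 205-fold lower when the libraries labelled DKO are given 3 reads together. Pou4f1, a factor of sensory neurons, stayed measurable at 13.2 and 18.1 CPM in cells labelled DKO against 42.7 and 41.7 CPM in WT cells (-1.44). Of 17 tested factors in a list of 29, 13 were lower and 1 higher (median -3.04), the higher one being Hes6 at 0.36, a call that was lost without DKO replicate 1 (adjusted p = 0.117), without WT replicate 1 (adjusted p = 0.318) and with the compared libraries alone (adjusted p = 0.0929).

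Rest, the repressor that keeps neuronal genes silent outside neurons, was higher, with 71.2 and 66.4 CPM in cells labelled DKO against 38.4 and 34.8 CPM in WT cells (0.91 ± 0.09, adjusted p = 1.22e-06). Ctdsp1, a phosphatase known to stabilise REST, was higher too (0.57 ± 0.08), and the corepressor Rcor2 was lower (-0.77 ± 0.07), while Rcor1 did not pass (0.17, adjusted p = 0.111). In neurons the BAF chromatin remodeller exchanges subunits. The neuronal subunit Actl6b had 0 reads in cells labelled DKO, against 8.39 and 7.66 CPM in WT cells, at least 183-fold lower, and the neuronal subunit Dpf1 fell (-1.30 ± 0.11). The counterpart of dividing progenitors, Actl6a, was slightly higher (0.27 ± 0.07), a call lost without WT replicate 1 (adjusted p = 0.0533). Smarcd3 was higher (1.22 ± 0.16). All 24 genes listed for REST corepressors and BAF could be tested, with 5 higher and 10 lower (median -0.02), beside 19.2% higher and 21.5% lower among all genes. The count of higher genes changed without DKO replicate 2.

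The RE1 element that REST binds was looked for in RefSeq promoter sequences, which run from 250 bases before to 50 bases after a gene's start. A promoter was found for 9869 of the 13630 genes tested (72.4%). The core searched, on both strands, was CAGCACC followed by any 2 bases and GGACAG. It was present for 6 of these genes (0.0608%), for 5 of the 791 that fell at least 2-fold (0.632%) and for 0 of the 374 that rose at least 2-fold, against 11 of the 27025 genes in the whole promoter table (0.0407%). Since RE1 elements often lie far from promoters and vary in sequence, the search describes these windows only. The 6 windows are given on the strand of the gene, with the core in capitals, in the orientation in which it occurs (GRCm38.p6).
Fam163b, chr2:27142558-27142586: ccagcgtCAGCACCAGGGACAGttcctcg
Hrh3, chr2:180104569-180104597: cgcggcgCTGTCCGTGGTGCTGcccgcgc
Sptbn4, chr7:27396275-27396303: ccgggaaCTGTCCGTGGTGCTGgagccgc
Ttc9b, chr7:27653935-27653963: cggcgcgCTGTCCCCGGTGCTGatgctca
Ogdhl, chr14:32321909-32321937: gggaggtCAGCACCTCGGACAGcgagggc
Lca5, chr9:83441283-83441311: tttcggtCTGTCCTGGGTGCTGggctccg
The windows of Ttc9b and Ogdhl are on the plus strand and the others on the minus strand. Ttc9b had 0.123 and 0.0356 CPM in cells labelled DKO, against 15.6 and 16 CPM in WT cells (-7.44 ± 0.37). Sptbn4, a spectrin of the axon initial segment, had 1.91 and 0.783 CPM in cells labelled DKO, against 14.3 and 13.9 CPM in WT cells (-3.32 ± 0.34). Hrh3, the histamine receptor of nerve endings, had 2 reads in cells labelled DKO and 285 in WT cells, a count ratio of 168 (exact 95% counting interval 46.0 to 1392), and Fam163b had 0 reads against 50, at least 19.6-fold lower. Ogdhl fell less (-1.83 ± 0.12), and Lca5 did not pass (0.27, adjusted p = 0.119). Intervals and bounds of this kind cover counting error only.

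Genes for neuronal RNA-binding and splicing proteins were more often lower than higher, by widely differing amounts. Srrm3, an activator of neuronal microexons, had 0.441 and 0.356 CPM in cells labelled DKO, against 86.2 and 78.4 CPM in WT cells (-7.65 ± 0.19), and Srrm4 had 0.294 and 1.14 CPM in cells labelled DKO, against 42.3 and 42.7 CPM in WT cells (-6.02 ± 0.27). Among the Elav-like proteins, which stabilise neuronal messengers, Elavl3 fell to 0.711 and 0.641 CPM in cells labelled DKO, against 73.0 and 67.3 CPM in WT cells (-6.68 ± 0.18), while Elavl4 had 117 and 149 CPM in cells labelled DKO, against 191 and 185 CPM in WT cells (-0.50 ± 0.10). Both Elav-like genes were lower, by very different amounts. Celf4 (-5.64 ± 0.14), Celf3 (-4.60 ± 0.13) and Nova2 (-3.42 ± 0.12) fell as well. The polypyrimidine tract proteins, which oppose neuronal splicing, stayed near WT, with Ptbp1 at 1029 and 975 CPM in cells labelled DKO against 1023 and 1011 CPM in WT cells (-0.02, adjusted p = 0.783), Ptbp2 at 0.01 (adjusted p = 0.955) and Ptbp3 higher at 0.40 ± 0.09. Of 25 tested genes in a list of 32, 15 were lower and 2 higher (median -0.39), the count of 2 being 1 without either WT replicate.

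**Figure D2:**
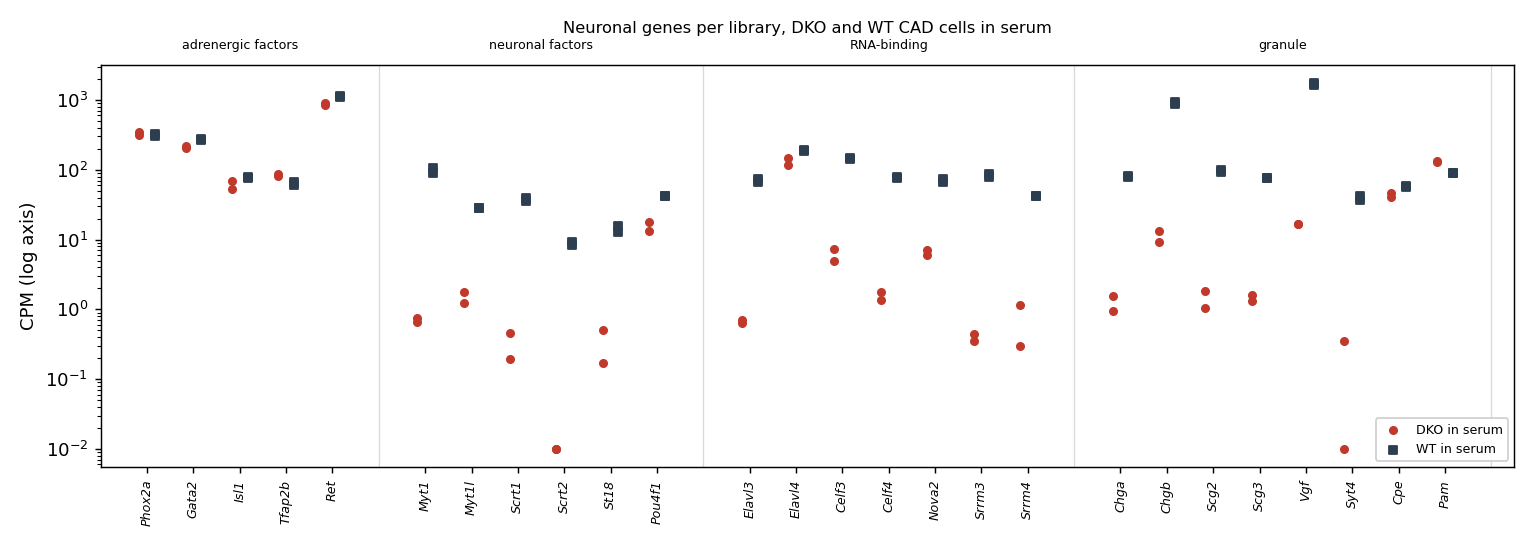
Level in CPM (log axis) of neuronal genes in each library, with the 2 libraries labelled DKO as red circles left of the 2 WT libraries as dark squares, and a level of 0 drawn at the foot of the axis. Only some adrenergic factors are shown, without Six3, Eya1 and Gata3, which changed more. Those shown lie close together in both groups, while most of the other genes lie far lower in the libraries labelled DKO. Elavl4 and Cpe are only slightly lower there, and Pam is higher.

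Genes of the dense-core secretory granule had the lowest median of the 35 gene lists. Vgf, a granule peptide precursor and the gene with the lowest p-value of the comparison, had 16.9 and 16.9 CPM in cells labelled DKO, against 1733 and 1651 CPM in WT cells (-6.65 ± 0.08, adjusted p = 3.31e-16). The granins, the core proteins of these granules, fell together, with Chgb at 9.27 and 13.1 CPM in cells labelled DKO against 924 and 883 CPM in WT cells (-6.36 ± 0.15), Scg2 at -6.12 ± 0.19, Chga at -6.05 ± 0.23 and Scg3 at -5.72 ± 0.13. Syt4, a synaptotagmin of peptide vesicles, had 0 and 0.356 CPM in cells labelled DKO, against 41.6 and 37.3 CPM in WT cells (-8.03 ± 0.37). The enzymes that process peptides were affected unequally. The convertase Pcsk2 fell (-4.12 ± 0.68) and the carboxypeptidase Cpe fell slightly (-0.39 ± 0.09), whereas Pam, which amidates peptides, was higher at 130.2 and 132 CPM in cells labelled DKO against 88.5 and 90.1 CPM in WT cells (0.56 ± 0.07). Of 26 listed genes, 18 could be tested, of which 17 were lower and 1 higher (median -4.90, or -4.05 with genes at 0 set to their bound). Their summed level was 295 and 319 CPM in cells labelled DKO, against 3498 and 3356 CPM in WT cells.

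Most genes of synaptic vesicle release were lower. Unc13a, the priming factor, had 1.08 and 0.961 CPM in cells labelled DKO, against 124 and 106 CPM in WT cells (-6.80 ± 0.18). Snap25, the SNARE protein of the plasma membrane, had 0.637 and 0.997 CPM in cells labelled DKO, against 73.9 and 75.7 CPM in WT cells (-6.56 ± 0.15), and the vesicle protein Syp stood at -5.62 ± 0.28. The more widely used vesicle gene Vamp2 stood at -0.86 ± 0.15, and Vamp1 (1.29 ± 0.12) and Sypl (0.67 ± 0.13) were higher. Of 32 tested genes in a list of 37, 25 were lower and 2 higher (median -1.55).

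Receptors and channels of excitable cells were lower across classes. The nicotinic subunits Chrna3 and Chrnb2, which form receptors of autonomic ganglia and brain, stood at 6.81 and 6.37 CPM in cells labelled DKO against 119 and 112 CPM in WT cells (-4.12 ± 0.10) and at -5.88 ± 0.15, and acetylcholinesterase, Ache, at -3.87 ± 0.33. Of 10 tested genes in a cholinergic list of 19, 5 were lower and 1 higher (median -1.93), the higher count being 0 without WT replicate 1. The leak potassium channel gene Kcnk3 stood at -6.73 ± 0.30 and the pacemaker channel gene Hcn2 at -4.30 ± 0.19. Kcnh4 had 1 read in cells labelled DKO and 406 in WT cells, a ratio of 478 (85.3 to 18931). Of 29 tested voltage-gated channel genes in a list of 45, 20 were lower and 1 higher, Cacna1c at 0.47, whose call was lost without DKO replicate 1 (adjusted p = 0.215) or WT replicate 2 (adjusted p = 0.235) and with the compared libraries alone (adjusted p = 0.0586). The median of this list was -1.79. Among ionotropic glutamate, GABA and glycine receptor subunits 8 of 10 tested in a list of 30 were lower and 0 higher (median -2.63). The serotonin-gated channel gene Htr3a went the other way, at 732 and 841 CPM in cells labelled DKO against 121 and 125 CPM in WT cells (2.67 ± 0.08, adjusted p = 1.86e-12).

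Genes of catecholamine synthesis were lower in part. Th, the rate-limiting tyrosine hydroxylase, had 0 reads in both libraries labelled DKO against 2.10 and 2.17 CPM in WT cells, at least 49.1-fold lower (adjusted p = 3.35e-05). Dbh, which forms noradrenaline, had 6.25 and 5.55 CPM in cells labelled DKO against 65.7 and 73.0 CPM in WT cells (-3.55 ± 0.15), and Gch1, which starts synthesis of the cofactor of tyrosine hydroxylase, fell by 0.60. Ddc, the decarboxylase that forms dopamine, was higher at 5.74 and 5.95 CPM in cells labelled DKO against 1.79 and 2.82 CPM in WT cells (1.33 ± 0.34), a call lost without WT replicate 1 (1.05, adjusted p = 0.0671). Of 12 tested genes in a list of 19, 5 were lower and 4 higher (median -0.04), and the count of 4 was 0 without WT replicate 1.

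Cytoskeletal genes were more often lower than higher, with members moving both ways, beside 19.2% higher and 21.5% lower among all genes. Of the 15 tubulin genes tested, 10 did not pass. Tubb5, the main beta tubulin of dividing cells, had 2829 and 2839 CPM in cells labelled DKO against 2799 and 2879 CPM in WT cells (adjusted p = 0.973), whereas the neuronal Tubb3 (-4.09 ± 0.08), Tuba1a (-0.72 ± 0.05), Tubb2a (-0.68 ± 0.11) and Tubb2b (-0.61 ± 0.07) were lower. Of 15 tested tubulin genes in a list of 17, 4 were lower and 1 higher (median near 0), and the higher count was 4 without DKO replicate 1, 0 without DKO replicate 2 and 3 with replicate number as a block. Prph, peripherin of peripheral neurons, was lower at 671 and 647 CPM in cells labelled DKO against 1363 and 1324 CPM in WT cells (-1.03 ± 0.05). Vim had 2391 and 2607 CPM in cells labelled DKO against 1275 and 1333 CPM in WT cells, and Lmna, the A-type lamin, was higher as well (0.53 ± 0.07). Of 11 tested intermediate filament and lamin genes in a list of 16, 6 were lower and 2 higher (median -0.43). Crmp1, a collapsin response mediator, had 5.74 and 4.09 CPM in cells labelled DKO against 372 and 351 CPM in WT cells (-6.17 ± 0.14), Stmn3 stood at -6.48 ± 0.20, and Map1b at -0.76 ± 0.08. The axonal transport motor gene Kif1a had 0.956 and 1.46 CPM in cells labelled DKO against 19.1 and 18.6 CPM in WT cells. The related Stmn1, a regulator of microtubules in dividing cells, was higher (328 and 364 CPM in cells labelled DKO against 249 and 247 CPM in WT cells, 0.48 ± 0.07). Of 25 tested microtubule-associated genes in a list of 27, 16 were lower and 2 higher (median -0.77). The other higher member was the neuronal Stmn2 (0.50 ± 0.17), whose call was lost without DKO replicate 1 (0.46, adjusted p = 0.0573), without WT replicate 2 (0.29, adjusted p = 0.303) and with the compared libraries alone (0.49, adjusted p = 0.0902), so that the count was then 1.

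Surface molecules by which neurons adhere and steer were lower for the immunoglobulin family and mixed for guidance. L1cam, an axonal adhesion molecule, had 13.8 and 11 CPM in cells labelled DKO against 270.5 and 273 CPM in WT cells (-4.44 ± 0.10), Nfasc stood at -5.97 ± 0.27 and Ncam1 at -1.51 ± 0.08. Ntm had 0 reads in cells labelled DKO, at least 148-fold lower, and Cntn2 had 1 read against 359, a ratio of 423 (75.4 to 16745). Of 21 tested genes in a list of 28, 17 were lower and 1 higher (median -1.84), the higher one being Cntn3 (1.02), whose call was lost without WT replicate 1 (adjusted p = 0.074) or WT replicate 2 (adjusted p = 0.0552). The higher count was 2 without DKO replicate 1. In the guidance list the netrin receptor Unc5a fell (-5.72 ± 0.15), while the semaphorin and VEGF coreceptors rose, Nrp2 to 211 and 171 CPM in cells labelled DKO against 43.2 and 40.8 CPM in WT cells (2.19 ± 0.09) and Nrp1 to 247 and 271 CPM in cells labelled DKO against 112 and 111 CPM in WT cells (1.21 ± 0.07). The secreted ligand Slit3 and the receptor Epha4 rose too (1.03 ± 0.08 and 1.42 ± 0.19). Of 33 tested guidance genes in a list of 48, 12 were lower and 7 higher (median -0.12), beside 21.5% lower and 19.2% higher among all genes. The count of higher guidance genes changed without DKO replicate 2. Cadherin genes had 9 of 13 tested in a list of 28 lower and 1 higher (median -0.95), the count of 1 being 2 without DKO replicate 2. The clustered protocadherins, which give neurons surface identities, were in part lower. Pcdha11, the 1 alpha cluster gene in the count annotation, had 30.6 and 29.2 CPM in cells labelled DKO against 111 and 107 CPM in WT cells (-1.87 ± 0.07), and of 18 tested beta genes 9 were lower and 0 higher. The 9 were Pcdhb2 to Pcdhb6 at one end of the cluster and Pcdhb10, Pcdhb12, Pcdhb15 and Pcdhb17, and the gamma gene Pcdhgc4 was slightly lower (-0.30 ± 0.08). The beta genes summed to 16.3 and 11 CPM in cells labelled DKO against 29.5 and 22.8 CPM in WT cells. They are near-identical copies, and reads that map to several places stand apart from the gene counts, so single members are uncertain. All 319 tested genes of their chromosome had a median log2 fold change of -0.43, whose part in these falls was not tested.

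**Figure D3:**
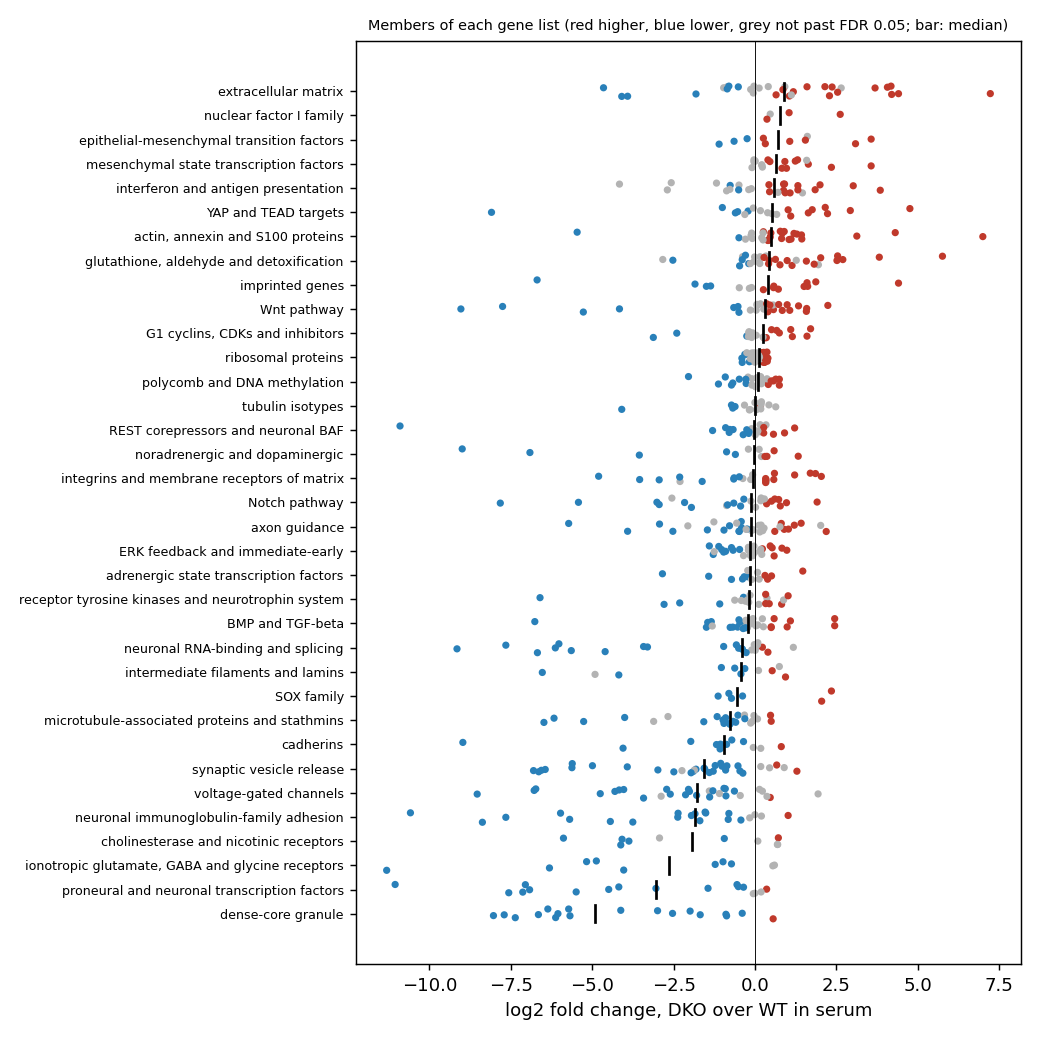
Log2 fold change of DKO-labelled over WT cells for each tested member of each gene list, 1 list per row and ordered by its median (black bar), with members higher in DKO-labelled cells in red, lower in blue and those not past the threshold in grey. Dense-core granule genes have the lowest median (-4.90) and extracellular matrix genes the highest (0.89).

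Genes of the basement membrane were among those higher in cells labelled DKO. Col4a5 and Col4a6, neighbouring genes for the alpha 5 and alpha 6 chains of type IV collagen, had 12.4 and 9.58 CPM and 5.49 and 6.05 CPM in cells labelled DKO. In WT cells Col4a5 had 0.648 and 0.651 CPM, a change of 4.07 ± 0.28, and Col4a6 had 2 reads in all against 394, a ratio of 167 (46.0 to 1386). The paired genes for the common chains did not follow, with Col4a1 at -0.03 (adjusted p = 0.816) and Col4a2 lower (-0.85 ± 0.10). Laminin subunits rose, Lama4 to 30.6 and 27.0 CPM in cells labelled DKO against 1.94 and 2.48 CPM in WT cells (3.69 ± 0.20), Lamb2 to 148 and 141 CPM in cells labelled DKO against 26.2 and 23.5 CPM in WT cells (2.54 ± 0.08) and Lamc1 to 1179 and 920.5 CPM in cells labelled DKO against 481 and 444 CPM in WT cells (1.18 ± 0.09). Nid1, which links laminin to collagen IV, had 208 and 176 CPM in cells labelled DKO against 40.7 and 37.8 CPM in WT cells (2.29 ± 0.10). Fibronectin, Fn1, had 1176 and 735 CPM in cells labelled DKO against 226 and 204 CPM in WT cells (2.15 ± 0.15), and Sparc, a collagen-binding protein, rose by 1.60 ± 0.06. The 2 libraries labelled DKO differ most in Fn1 among these genes.

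Other matrix genes fell in the same list. Col18a1, the collagen that yields endostatin, had 5.88 and 5.95 CPM in cells labelled DKO against 143 and 154 CPM in WT cells (-4.65 ± 0.10), and the brain proteoglycans Ncan and Bcan stood at -4.09 ± 0.35 and -3.91 ± 0.46. Of 32 tested matrix genes in a list of 50, 15 were higher and 7 lower (median 0.89), with a summed level of 4447 and 3599.8 CPM in cells labelled DKO against 2069.7 and 1976 CPM in WT cells. Their receptors showed no common direction: 10 of 23 tested in a list of 28 were higher and 8 lower (median -0.07), with the integrin subunit Itgb5 at 82.3 and 92.6 CPM in cells labelled DKO against 29.5 and 24.4 CPM in WT cells (1.70 ± 0.12) and Itga1, a subunit of a collagen receptor, at 8.14 and 5.73 CPM in cells labelled DKO against 82.1 and 82.2 CPM in WT cells (-3.54 ± 0.13).

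Factors of the mesenchymal state of neuroblastoma rose or did not pass, and none fell. Prrx1, a homeobox factor of mesenchyme, had 47.0 and 58.5 CPM in cells labelled DKO against 5.41 and 3.53 CPM in WT cells (3.57 ± 0.18, adjusted p = 1.37e-09). Runx2, known from bone (1.31 ± 0.15), and the receptor Notch2 (0.97 ± 0.11) rose as well. Of 18 tested genes in a list of 26, 10 were higher and 0 lower (median 0.65), beside 19.2% higher and 21.5% lower among all genes. The counts of 0 given for this list and for ionotropic receptors, nuclear factor I genes and beta protocadherins are those of edgeR, and they were also 0 at an unadjusted p under 0.05 and with DESeq2. Factors of epithelial-mesenchymal transition, a list that shares Prrx1 and Snai2 with the first, had 6 of 10 tested (15 listed) higher and 3 lower (median 0.70), with the forkhead genes Foxc2 (3.09 ± 0.31) and Foxc1 (1.55 ± 0.21) and Twist1 (1.07 ± 0.17) higher and Zeb1 lower (-0.64 ± 0.10). In the nuclear factor I family 3 of 4 were higher and 0 lower, among them Nfib with 489 and 548 CPM in cells labelled DKO against 258 and 243 CPM in WT cells (1.05 ± 0.07). Among SOX genes 2 of 6 tested (17 listed) were higher and 4 lower (median -0.55), the lower ones including the neuronal Sox11 (-0.72 ± 0.10) and Sox4 (-0.38 ± 0.07).

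The coactivators and DNA-binding partners of Hippo signalling rose with part of their target genes. Yap1 had 37.8 and 43.5 CPM in cells labelled DKO against 12.4 and 11.6 CPM in WT cells (1.76 ± 0.13), and its paralogue Wwtr1, which encodes TAZ, had 217 and 229.7 CPM in cells labelled DKO against 75.5 and 68.2 CPM in WT cells (1.64 ± 0.07). Of the TEAD factors that they bind, Tead2 had 66.9 and 69.3 CPM in cells labelled DKO against 10.2 and 7.75 CPM in WT cells (2.93 ± 0.13), Tead3 rose by 2.16 ± 0.22, and Tead1 did not pass (-0.31, adjusted p = 0.0667). The target genes split. F3, tissue factor, had 54.7 and 56.8 CPM in cells labelled DKO against 10.6 and 13 CPM in WT cells (2.23 ± 0.12), and the kinase Axl rose (1.02 ± 0.12), but Ccn1 (0.52, adjusted p = 0.402) and Amotl2 (0.67, adjusted p = 0.0981) did not pass and Crim1 had 0 reads in cells labelled DKO, at least 25.9-fold lower. Of 19 tested genes in a list of 29, 8 were higher and 5 lower (median 0.52), and the count of 5 was 3 without either WT replicate.

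**Figure D4:**
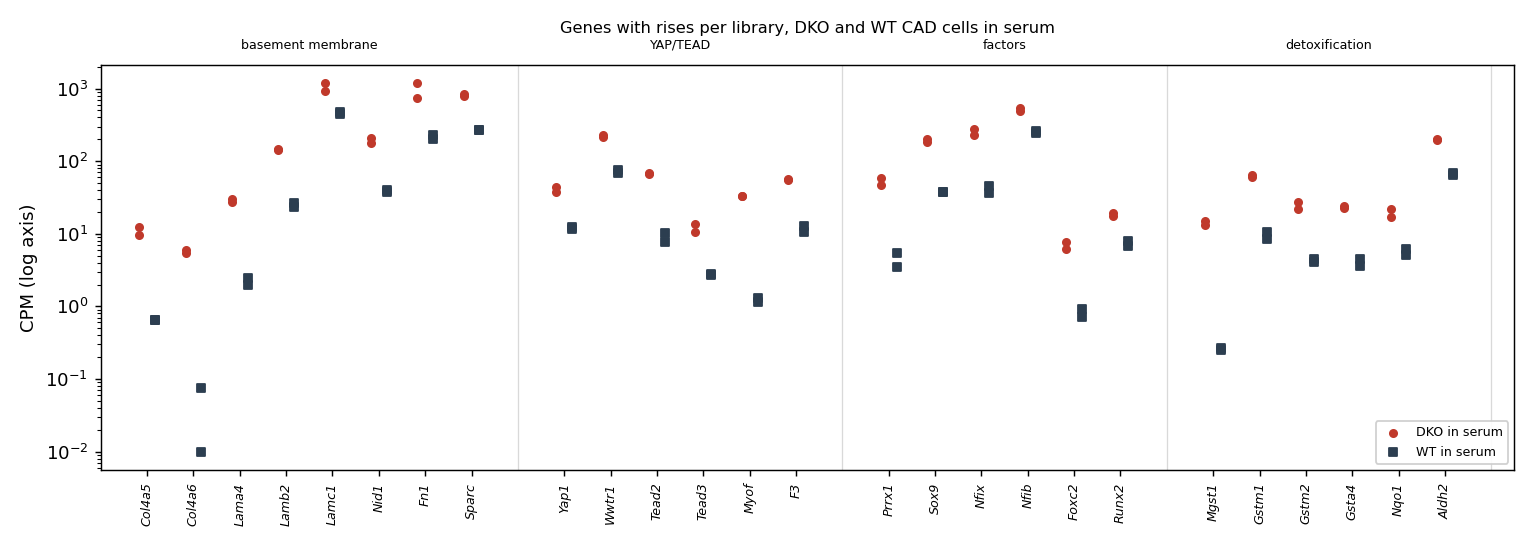
Level in CPM (log axis) of genes of basement membrane, YAP and TEAD, transcription factors and detoxification in each library, with the 2 libraries labelled DKO as red circles left of the 2 WT libraries as dark squares, and a level of 0 drawn at the foot of the axis. The genes shown were picked among those that rose, so the circles lie above the squares for each of them. Members of these classes that fell or did not pass, such as Col4a1, Col4a2, Tead1 and Aldh1b1, are not shown.

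Genes for actin-binding, annexin and S100 proteins, which link the cell cortex and membranes, were mostly higher. Anxa5 had 204 and 224 CPM in cells labelled DKO against 81.2 and 77.6 CPM in WT cells (1.43 ± 0.07), Anxa2 stood at 1.29 ± 0.09, S100a6 at 772 and 784 CPM in cells labelled DKO against 365 and 355 CPM in WT cells (1.11 ± 0.05) and the calponin Cnn2 at 1.44 ± 0.12. Of 27 tested in a list of 32, 18 were higher and 2 lower (median 0.49), the count of 2 being 5 without DKO replicate 1. Cavin2, a coat protein of caveolae, had 1049.9 and 1076 CPM in cells labelled DKO against 442 and 418 CPM in WT cells (1.31 ± 0.05). Among the largest absolute gains were also Eef1a1, a translation elongation factor (8965 and 8634 CPM in cells labelled DKO against 6785 and 6916 CPM in WT cells, 0.36 ± 0.04), and Fth1, the ferritin heavy chain that stores iron (2605 and 2677 CPM in cells labelled DKO against 1350 and 1402 CPM in WT cells, 0.94 ± 0.05). Gnas, the stimulatory G protein subunit, stood at 0.57 ± 0.04 with counts of its own strand and at 0.03 (adjusted p = 0.859) with unstranded counts. The largest absolute losses after Vgf were the mitochondrial mt-Co1 (1819 and 2575 CPM in cells labelled DKO against 3935 and 3597 CPM in WT cells, -0.78 ± 0.13), beside the lower mitochondrial share of DKO replicate 1 given above, Map1b and the lipid desaturase gene Scd2 (1596 and 1208 CPM in cells labelled DKO against 2626 and 2489 CPM in WT cells, -0.87 ± 0.09).

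Detoxification genes rose in several families. The glutathione transferase genes Gstm1 (59.9 and 64.3 CPM in cells labelled DKO against 10.7 and 8.43 CPM in WT cells, 2.70 ± 0.12), Gsta4 (2.54 ± 0.16) and Gstm2 (2.52 ± 0.16), the quinone reductase gene Nqo1 (1.82 ± 0.17) and Aldh2, which oxidises acetaldehyde (198 and 203 CPM in cells labelled DKO against 68.0 and 65.5 CPM in WT cells, 1.58 ± 0.07), were higher in cells labelled DKO. The Gstm genes are close copies and may share reads. The mitochondrial dehydrogenase gene Aldh1b1 was lower (-2.52 ± 0.17). Of 31 tested genes in a list of 38, 15 were higher and 5 lower (median 0.42), the count of 5 being 3 without WT replicate 2.

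Genes of peptide loading onto MHC class I rose, while class I heavy chain genes moved in both directions. Tap2 of the peptide transporter had 17.6 and 20.1 CPM in cells labelled DKO against 4.50 and 5.86 CPM in WT cells (1.85 ± 0.18), the loading factor Tapbp stood at 1.32 ± 0.08, the immunoproteasome subunit Psmb8 at 2.00 ± 0.28 and the light chain B2m at 0.93 ± 0.13. H2-D1, a heavy chain gene, had 17.2 and 20.5 CPM in cells labelled DKO against 33.2 and 30.5 CPM in WT cells (-0.76 ± 0.11), and H2-K1 stood at -0.50 ± 0.11, a call lost without WT replicate 1 (-0.32, adjusted p = 0.0665). The heavy chain genes H2-T22 (1.57 ± 0.24) and H2-T10 (2.23 ± 0.47) and the class I-like gene Mr1 (2.60 ± 0.41), which are not in the list and were chosen after their values were seen, were higher. Heavy chain genes are near-identical copies, so their counts are uncertain. Of the wider interferon list the membrane proteins Ifitm3 (3.85 ± 0.31) and Bst2 (1.32 ± 0.13) and the factor Irf1 (0.88) were higher. Of 26 tested genes in a list of 36, 13 were higher and 2 lower (median 0.58), the count of 2 being 4 without DKO replicate 1 and 1 without WT replicate 1.

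The Wnt, the BMP and TGF-beta and the Notch lists held large changes in both directions. In the Wnt list the extracellular inhibitor Dkk1 had 698 and 771 CPM in cells labelled DKO against 245 and 247 CPM in WT cells (1.58 ± 0.06) and the receptor Fzd7 rose (1.59 ± 0.09), while the ligands Wnt11 (5.15 and 5.80 CPM in cells labelled DKO against 102 and 92.3 CPM in WT cells, -4.16 ± 0.11) and Wnt3 (-5.27 ± 0.44) fell. The list had 12 higher and 7 lower of 26 tested (43 listed, median 0.32). In the BMP and TGF-beta list the ligand Bmp7 had 0.76 and 0.356 CPM in cells labelled DKO against 66.8 and 62.3 CPM in WT cells (-6.76 ± 0.20) and the signal transducer Smad1 fell (-1.34 ± 0.10), while the ligand Tgfb3 had 29.5 and 27.2 CPM in cells labelled DKO against 5.68 and 4.74 CPM in WT cells (2.45 ± 0.15). It had 7 higher and 11 lower of 32 tested (42 listed, median -0.22). In the Notch list the receptors Notch3 (1.91 ± 0.19) and Notch2 rose, the low Notch1 (-3.01 ± 0.74) and the ligand Jag2 (-0.84 ± 0.09) fell, and the target Hes1 rose (0.78 ± 0.12), with 7 higher and 10 lower of 25 tested (29 listed, median -0.12). These counts were 4 higher without WT replicate 1, and 6 lower without DKO replicate 1 or WT replicate 1. Receptor tyrosine kinases had 5 higher and 5 lower of 19 tested (34 listed, median -0.19), and ERK feedback and immediate-early genes 6 higher and 9 lower of 30 tested (33 listed, median -0.15). At least 2-fold, 1 receptor tyrosine kinase gene rose and 4 fell, and 0 of the ERK feedback and immediate-early genes rose and 4 fell. Beside these counts, 19.2% of all genes tested were higher and 21.5% lower with no limit on size. At least 2-fold, 3.82% of all genes tested were higher and 8.31% lower.

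Lists of growth and chromatin genes also held changes in both directions. Among G1 regulators the D-type cyclins diverged, with Ccnd2 lower (-3.12 ± 0.09) and Ccnd3 higher, at 199 and 213 CPM in cells labelled DKO against 60.3 and 65.1 CPM in WT cells (1.71 ± 0.08), while Ccnd1 differed little (-0.25 ± 0.07), a call lost without WT replicate 2 (adjusted p = 0.0653). The tumour suppressor genes Rb1 (1.10 ± 0.15) and Cdkn2a (1.15 ± 0.08) were higher, and 10 of 21 tested (24 listed) were higher and 3 lower (median 0.25), the count of 3 being 5 without DKO replicate 2. Polycomb and DNA methylation genes had 6 higher and 8 lower of 26 (median 0.09), beside 19.2% higher and 21.5% lower among all genes. At least 2-fold, 0 of them rose and 2 fell, beside 3.82% and 8.31% of all genes. The 2 were the methyltransferase gene Dnmt3a (-1.12 ± 0.08) and the demethylase gene Tet1 (-2.04 ± 0.21). Imprinted genes had 9 higher and 4 lower of 16 tested (30 listed, median 0.41), with Igf2r (1.51 ± 0.13), Grb10 (1.87 ± 0.25) and Phlda2 higher and Magel2 (0.196 and 0.32 CPM in cells labelled DKO against 29.0 and 23.0 CPM in WT cells, -6.69 ± 0.22) and Peg3 (-1.49 ± 0.11) lower. Ribosomal protein genes had 35 higher and 5 lower of 78 (median 0.14), with 0 changing 2-fold. Several of the higher calls, those of Rpl4, Rpl9, Rpl10, Rpl21, Rpl32, Rps2 and Rps27, were lost with the compared libraries alone. The count of 5 was 8 without DKO replicate 2 and 3 without WT replicate 2.

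Beyond the lists, further large falls were those of Alpl, tissue-nonspecific alkaline phosphatase, and Nexmif, at least 179-fold and at least 117-fold lower with 0 reads in cells labelled DKO. Count ratios were 650.1 (116 to 25723) for the secreted glycoprotein gene Stc2, 437 (77.9 to 17303) for the channel gene Asic4 and 360.4 (99.3 to 2982) for the nuclear receptor corepressor Nrip1, all lower. Further large rises were those of the small leucine-rich proteoglycans Prelp (7.06 and 9.90 CPM in cells labelled DKO against 0.114 and 0.186 CPM in WT cells, 5.74 ± 0.39) and Aspn (3.57 ± 0.20), of the ion channel gene Tmem63a (98.0 and 94.0 CPM in cells labelled DKO against 6.10 and 4.84 CPM in WT cells, 4.14 ± 0.12), of Arhgef37 (3.98 ± 0.16), of Lrrc17 (4.57 ± 0.34), of the decoy receptor gene Tnfrsf23 (3.94 ± 0.22) and of the junctional gene Jam2 (3.79 ± 0.39).

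Falls of neighbouring genes formed 4 runs of at least 5 tested genes in a row that all fell at least 2-fold, and rises formed 0 such runs. Besides the protocadherin run from Pcdha11 to Pcdhb6, these were a run of 5 genes from Fads6 to Cdr2l, a run of 5 from Clec11a to Aspdh that holds the synaptic genes Shank1, Syt3 and Lrrc4b, and a run of 6 from Sema7a through Islr and Islr2. Neighbours were taken from the order of genes in a RefSeq annotation of another build than that of the counts.

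The labelled cell type was set against its markers. Of 10 tested markers in a list of 13 for catecholaminergic neuronal cells, 9 were lower and 1 higher. The list summed to 206 and 247 CPM in cells labelled DKO against 2067 and 2013 CPM in WT cells. Much of the WT sum was the granule gene Chgb (mean 904 CPM) and the neuronal Tubb3 (mean 466 CPM). The transporter genes Slc18a2, Slc6a2 and Slc6a3 were below the filter, with 2, 0 and 0 reads in WT cells and 0 in cells labelled DKO. Much of this list was thus low in the cells labelled DKO, and its transporter genes were nearly unread in WT cells too. Most markers of other cell types had few reads or none in both groups, and their part in the results was not tested. Summed fibroblast markers were 9.71 and 8.33 CPM in cells labelled DKO against 2.90 and 2.26 CPM in WT cells, with 2 of 5 tested higher, 1 lower and Col3a1, Fap and Postn at 0 reads. Of 8 macrophage markers only Cd68 had reads (0.319 and 0.676 CPM in cells labelled DKO against 0.762 and 1.02 CPM in WT cells), and 0 of 6 epithelial markers passed the filter on low counts. Melanocyte markers summed to 20.2 and 18.2 CPM in cells labelled DKO against 8.81 and 8.90 CPM in WT cells, nearly all of it Mitf, with Tyr, Dct and Tyrp1 at 0 reads. Of Schwann cell and neural crest markers Ngfr rose (0.82) and Pmp22 fell (-2.10), while Sox10 and Foxd3 had 0 reads. Astrocyte markers had 1 of 4 tested lower and endothelial markers 1 higher and 1 lower of 2, the oligodendrocyte list 0 called of 2, the smooth muscle list 1 higher and 1 lower of 3, and the germ cell list 1 higher of 1 tested. In bulk RNA fewer cells of a type and less RNA per cell cannot be told apart.

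Libraries of the other experiments with these genotypes in their titles gave the same direction for most genes with large changes and for fewer of those with small ones. For each gene the mean level in 2 libraries titled DKO_2 in serum of the third experiment was set against that in 3 libraries titled WT_2 in serum of the second, as a log2 ratio with 0.5 CPM added. Of the 1132 genes that fell at least 2-fold 93.8% were lower there (all genes tested, 50.4%), with a median of -1.48, and of the 521 that rose at least 2-fold 92.7% were higher (all genes tested, 49.5%), with a median of 1.45. Of all genes called, with no limit on size, 74.1% of the lower ones were lower there and 77.9% of the higher ones higher. Eef1a1, the largest gain in CPM of the first experiment, went the other way, with 2284 and 2206 CPM in the DKO_2 libraries against 8257, 8252 and 8035 CPM in the WT_2 libraries. Vgf had 1.29 and 1.98 CPM in the DKO_2 libraries against 2023, 1856 and 2046 CPM in the WT_2 libraries. Rest had 108 and 105 CPM in the DKO_2 libraries against 27.1, 21.0 and 21.6 CPM in the WT_2 libraries, Prrx1 had 92.5 and 89.3 CPM in the DKO_2 against 2.49, 3.24 and 2.41 CPM in the WT_2 libraries, and Lama4 had 42.3 and 42.1 CPM in the DKO_2 against 1.88, 1.76 and 2.00 CPM in the WT_2 libraries. These experiments differ in library kit and read length, so genotype and experiment cannot be told apart in them, and what the 2 in the titles marks is not given in the sources used here. At 1 day without serum, in other libraries of the first experiment, 81.3% of the 1132 genes were called lower (23.0% of all genes) and 79.5% of the 521 called higher (21.9% of all genes).

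**Figure D5:**
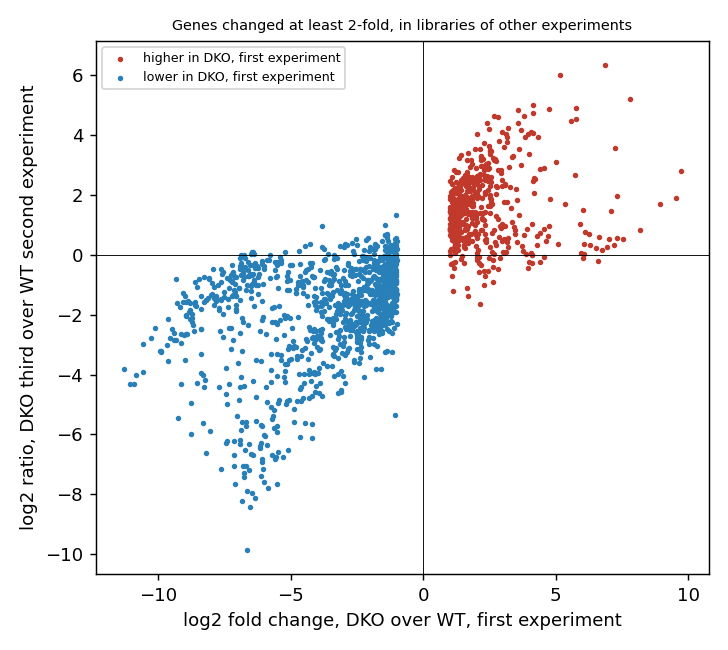
Log2 fold change of DKO-labelled over WT cells in serum in the first experiment (x axis) and log2 ratio of DKO_2 libraries of the third over WT_2 libraries of the second experiment (y axis, 0.5 CPM added), for genes that changed at least 2-fold in the first. Of the genes that fell (blue) 93.8% lie below 0 on the y axis and of those that rose (red) 92.7% lie above it.

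The genes that differed were then followed where WT cells lose serum for 4 days, a comparison of the second experiment with 3 libraries a group. The day 4 libraries are titled WT but carry the DKO genotype in another label field, and they are taken here by their titles. Of the 1089 genes lower by at least 2-fold in cells labelled DKO that could be tested there, 64.8% rose at 4 days and 7.44% fell, against 36.2% and 34.7% of all genes tested at 4 days. Genes higher by at least 2-fold in cells labelled DKO also rose more often than they fell, with 57.2% of 439 higher and 11.6% lower at 4 days. These 439 are those of the 521 that passed the filter on low counts, run there on WT libraries alone. A gene with few reads in WT cells in serum passed it only with more reads at 4 days. Such a gene could hardly be called lower, so these shares are in part set by the choice of genes. With no limit on size the genes called higher went the other way, with 34.9% of 2536 higher and 43.2% lower at 4 days. Of 2885 genes called lower, with no limit on size, 50.3% rose at 4 days and 25.7% fell. Chgb, lower in cells labelled DKO, rose at 4 days (log2 fold change 2.69). Dkk1 was of the opposite kind, with a rise in cells labelled DKO and a fall at 4 days (-3.41). Lama4 rose in both comparisons (2.42 at 4 days).

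Transfection of miR-138 mimic at 3 nM into cells labelled DKO in serum was set against pUC19 DNA, with 2 libraries a group in the third experiment. Of 481 genes that rose at least 2-fold in cells labelled DKO and could be tested there, 35.8% were lower with miR-138 mimic and 25.6% higher, against 27.3% and 28.7% of all genes tested. With miR-137 mimic, against the same pUC19 libraries, 46.2% of them were lower and 8.94% higher, against 22.5% and 23.1% of all genes tested. Of 768 genes that fell at least 2-fold in cells labelled DKO and could be tested there, 25.9% were higher with miR-138 mimic and 22.8% lower. With miR-137 mimic 17.8% of these 768 were higher and 20.6% lower. The 768 are those of the 1132 that passed the filter on low counts, run there on cells labelled DKO alone. Genes with few reads in such cells passed it only with more reads in some group, and could hardly be called lower. The shares therefore do not describe all genes that fell. Nfix had 57.9 and 55.9 CPM with miR-138 mimic, against 248 and 250.2 CPM with pUC19 (-2.13 ± 0.06), and the elastic fibre gene Fbln5 fell by 2.90 with miR-138 mimic. Both also fell with miR-137 mimic against pUC19, by less, with Nfix at -0.58 and Fbln5 at -1.15. Further genes with large falls, Chst13, Ece1, Tgm3, Prr9 and Has3, had between 0.382 and 5.81 CPM in the pUC19 libraries. Matches to the seed in messenger RNAs were not analysed here.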

How the data were processed

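PolyA RNA was sequenced as paired-end reads of 75 bp from strand-specific dUTP libraries, per the labels' protocols. The deposited files hold raw read counts per gene, and those of the small RNA raw counts per miRNA. STAR is named for the alignment and mm9 as the build, per the submitters' processing notes, and the notes also name cutadapt, BWA, DESeq and DESeq2, all without versions. Column 4 of the counts was used, the strand of dUTP libraries, since column 3 held 3.18 to 3.61% of reads assigned in columns 3 and 4. Reads mapping to several places are not counted by gene, which lowers close copies.

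The 8 libraries of the first experiment were fitted together with edgeR 4.0.16 (limma 3.58.1, R 4.3.3, the data.table package at 1.17.8), with filterByExpr (minimum count 10, minimum total 15), TMM scaling and the two-sided quasi-likelihood test, without a block, with Benjamini-Hochberg adjustment over all genes tested. CPM are counts per 1e6 reads scaled by TMM within an experiment, except where experiments are set side by side, which uses assigned reads. SE is the log2 fold change divided by the square root of F. With 0 reads in a group, 3 reads over the group gave a bound. With 1 to 3 reads, an exact 95% interval is given. The procedure was tested on simulated data. Sequences come from RefSeq (GRCm38.p6), whose coordinates were not used with the counts.

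Named were the hairpin genes and their neighbours, the 20 largest rises and falls with at least 5 CPM, the 10 largest gains and losses in CPM, up to 8 members per direction of each of 35 gene lists, runs of neighbours, and up to 8 genes that rose and then fell with the mimic. The members, lists and rule were chosen with earlier results of these data known. Python 3.11.15, pandas 2.3.3, scipy 1.17.1 and matplotlib 3.10.9 were used. Alternatives were DESeq2 1.42.0, RLE scaling, library totals alone, replicate number as a block, no filter on low counts, the compared libraries alone, unstranded counts (column 2) and each library left out. Some genes that the rule names are not reported here.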

Additional observations from a re-analysis of the deposited data

How the results depend on the processing

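The count of 5546 genes past the threshold was 5424 with DESeq2, 5581 with RLE scaling, 5509 with library totals alone, 5771 with no low-count filter, 4416 with the compared libraries alone and 5509 with unstranded counts, and ran from 3937 to 6029 when 1 library was left out. The replicate numbers were not taken as pairs, since deviations of same-numbered libraries correlated at only 0.010 to 0.046, and with the replicate block 5929 genes passed. Genes higher in cells labelled DKO and lower at 4 days in WT cells numbered 1096, with a range of 663 to 1269 when 1 library was left out, the lowest without WT replicate 1. The share of calls that were higher stayed between 44.5 and 48.7% (47.2% in the reported fit). Of 543 named or listed genes past the threshold, 101 lost their call under at least 1 alternative and 0 reversed: 72 without WT replicate 1, 59 without WT replicate 2, 28 and 21 without DKO replicates 1 and 2, 39 with the compared libraries alone and 0 with the replicate block. A library left alone in its group takes its spread from the other groups. With 2 libraries a group, genes near the filter are not resolved at this depth.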

Other observations

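The shift was uneven over chromosomes, a pattern chosen after its values were seen. On the chromosome that carries the protocadherin clusters, 187 of 319 tested genes (58.6%) were lower in cells labelled DKO and 12 (3.76%) higher, with a median log2 fold change of -0.43. The medians of the other 19 chromosomes ran from -0.18 to 0.14, with 13.6 to 35.2% of their genes lower. At 1 day without serum the median of that chromosome was -0.44, and with 1 library left out it ran from -0.44 to -0.42. In the DKO_2 libraries of the third experiment over the WT_2 libraries of the second it was -0.01, where the other chromosomes ran from -0.19 to 0.26. Chromosome copy number was not measured here.

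Other motifs were counted in the same promoter windows on both strands, as descriptions. GGAATG, the core that TEAD factors bind, was found for 24.1% of genes that rose at least 2-fold and 15.4% of those that fell, against 14.1% of all tested genes with a promoter and 16.6% of the whole promoter table. TGANTCA, the AP-1 core, was found for 11.5% of the risers and 7.71% of the fallers, against 5.87% of tested genes and 8.97% of the table. CAGCTG, an E-box form, was found for 23.3% of the risers and 25.0% of the fallers, against 18.3% of tested genes and 18.3% of the table. Promoters of the risers held a median of 13 CpG, those of the fallers 18 and those of tested genes 21, so base composition moved with these shares and its part was not tested.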
